A study of Mus musculus with 2 samples.

Results

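Cholesterol synthesis genes were compared in the prefrontal cortex (PFC) between a control pool (C group) and a pool of mice exposed to chronic mild stress (CMS group). The 8 genes, of 37074 gene names on the arrays, were chosen by name: Hmgcs1, Idi1, Fdps, Fdft1, Sqle, Lss, Dhcr7 and Insig1. Of these, 7 encode enzymes of the pathway and Insig1 encodes a sensor of the sterol level. No uptake receptor is among the 8, so the uptake genes are described from a list of their own. All mice were male C57Bl/6 N sea, with no genetic change given, and were 9 to 10 weeks old at the start. The C group had no treatment, and the CMS group went through 4 weeks of unpredictable mild stressors while housed singly, so that the stressors and single housing cannot be told apart. The control mice were kept in groups. A pool held RNA of 7 mice by the series' design text, while the methods speak of 10 mice of each group for expression work. Each pool was hybridized to 1 one-color Agilent array, so no test between the groups could be made.

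Cholesterol does not cross the blood-brain barrier in lipoproteins to any large extent, and the brain makes its own, mainly in oligodendrocytes and astrocytes. The mevalonate pathway builds isoprenoid units from acetyl-CoA and joins them to squalene, which is closed into a ring and trimmed to cholesterol. When sterols in the endoplasmic reticulum are low, the transcription factor SREBP2 is released and raises most of these genes together. INSIG proteins hold SREBP2 and its escort SCAP back when sterols are high.

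None of the 8 genes differed by 1.2-fold between the pools with the arrays scaled to a common mean, and 2 of them, Lss and Fdps, were lower past 1.2-fold with no scaling. Their log2 ratios of CMS over control ran from -0.21 for Lss to 0.16 for Insig1, with a median of 0.00030, and 5 of the 8 lay above the median of all measured genes, -0.031, as 50% of genes do by definition. Over all 27119 genes that had a ratio, 2.58% were past 2-fold in either direction, 5.8% past 1.5-fold and 19.5% past 1.2-fold. Dim probes vary more, and among the 14645 genes between the lowest and the highest mean signal of the members these shares were 0.99%, 1.41% and 6.18%. The count of 0 of 8 is therefore near the background of genes with such signals. RNA of a whole tissue was measured, so a difference in the number of cells of a type and one in the RNA per cell cannot be told apart.

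RefSeq promoters were found for Hmgcs1, Idi1, Lss, Dhcr7 and Insig1, and the 250 bases before the start are shown for the members with 1 listed start, since promoter sequence is a feature the choice of genes did not use. Capitals mark the letters of 3 motifs, searched on both strands, namely TCACNCCAC (core of a sterol regulatory element, bound by SREBP), CCAAT (the NF-Y box) and GGGCGG (an Sp1 box). The windows lie on the plus strand of GRCm38.p6, at chr13:119690101-119690350 for Hmgcs1, chr13:8885356-8885605 for Idi1, chr10:76531355-76531604 for Lss and chr5:28071162-28071411 for Insig1.
Hmgcs1: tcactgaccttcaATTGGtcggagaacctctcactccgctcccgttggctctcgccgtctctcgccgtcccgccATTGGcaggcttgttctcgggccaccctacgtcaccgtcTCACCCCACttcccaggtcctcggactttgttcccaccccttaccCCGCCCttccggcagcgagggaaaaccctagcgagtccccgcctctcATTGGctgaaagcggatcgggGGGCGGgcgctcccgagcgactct
Idi1: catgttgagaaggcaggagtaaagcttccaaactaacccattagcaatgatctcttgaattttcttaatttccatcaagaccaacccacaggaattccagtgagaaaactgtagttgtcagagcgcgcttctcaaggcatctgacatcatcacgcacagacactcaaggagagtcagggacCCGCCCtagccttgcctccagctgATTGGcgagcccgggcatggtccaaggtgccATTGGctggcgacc
Lss: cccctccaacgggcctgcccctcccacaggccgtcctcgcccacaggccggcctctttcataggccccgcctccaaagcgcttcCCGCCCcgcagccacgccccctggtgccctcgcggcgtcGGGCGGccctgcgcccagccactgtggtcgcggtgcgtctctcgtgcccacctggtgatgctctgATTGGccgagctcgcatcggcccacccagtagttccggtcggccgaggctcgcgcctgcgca
Insig1: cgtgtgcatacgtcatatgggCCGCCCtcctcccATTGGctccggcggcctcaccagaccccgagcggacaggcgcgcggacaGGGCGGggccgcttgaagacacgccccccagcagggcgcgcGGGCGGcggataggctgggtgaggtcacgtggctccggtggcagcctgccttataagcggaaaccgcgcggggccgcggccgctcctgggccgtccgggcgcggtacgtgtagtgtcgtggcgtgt
The sterol element core was matched in 1 of the 5 members, Hmgcs1, at 137 to 129 bases before the start, and in 1.05% of all 32851 promoter windows of the same length. Counted by window, since Dhcr7 has 3 listed starts, CCAAT was matched in 5 of the members' 7 windows (1 of the 3 of Dhcr7) and in 33.8% of all windows. GGGCGG was matched in 6 of the 7 (2 of the 3 of Dhcr7), against 32.7% of all windows. A match of letters is a description and shows no binding.

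Signals of the early enzymes differed between the pools by less than the error of the scanner. The array values are background-subtracted intensities, scaled here to a mean of 2500 on each array, and levels of different probes are not comparable with one another. Hmgcs1 (NM_145942), which encodes the cytosolic synthase that makes HMG-CoA, had a scaled intensity of 19381 on the C array and 19037 on the CMS array, written from here as 19381 (C) and 19037 (CMS). Its log2 ratio was -0.026 ± 0.20, where the error is the scanner software's own for both spots and covers no spread between mice. For the brightest probe of each member that error was 10% to 10.2% of the signal on either array. It is thus nearly the same for all bright probes, and a ratio smaller than it only says that the ratio was small. Idi1 (NM_145360), which encodes the isomerase of the 5-carbon isoprenoid unit, had intensities of 3086 (C) and 3216 (CMS), a log2 ratio of 0.060 ± 0.20. Both ratios were smaller than their scanner errors.

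Fdps (NM_001253751), encoding farnesyl diphosphate synthase, whose product feeds both sterols and protein prenylation, had intensities of 9094 (C) and 8538 (CMS). Its log2 ratio was -0.091 ± 0.20. Fdft1 (NM_010191), encoding squalene synthase and so the first step that leads to sterols alone, was the only member with a second probe. Its brighter probe had intensities of 2763 (C) and 2929 (CMS), with a log2 ratio of 0.084 ± 0.20. The second probe was dim, at 27.0 (C) and 36.9 (CMS), where the dimmest probes counted as well above background were at 17.8 (C) and 17.6 (CMS). Its log2 ratio was 0.45 ± 0.36, so the probes of Fdft1 differed by less than their combined errors. With both probes averaged, Fdft1 had a log2 ratio of 0.27 and was the only member past 1.2-fold.

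Sqle (NM_009270), encoding squalene epoxidase, a rate-limiting enzyme of the sterol part of the pathway, had intensities of 6318 (C) and 6435 (CMS). The log2 ratio was 0.026 ± 0.20. Lss (NM_146006), encoding the synthase that closes the ring to lanosterol, had intensities of 229 (C) and 197 (CMS). Lss had the lowest ratio of the members, -0.21 ± 0.21, about as large as its scanner error. Dhcr7 (NM_007856), encoding the reductase of the last step to cholesterol on one of the branches, had intensities of 524 (C) and 506 (CMS) and a log2 ratio of -0.053 ± 0.20.

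Insig1 (NM_153526), itself a target of SREBP and a brake on its release, had intensities of 288 (C) and 322 (CMS). Its log2 ratio of 0.16 ± 0.21 was the highest of the members and smaller than its error. For the 342 probes spotted more than once, log2 ratios of repeat spots varied with an SD of 0.13. By this narrower measure Lss and Insig1 lay past 1 SD from 0 and the other members within it.

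**Figure D1:**
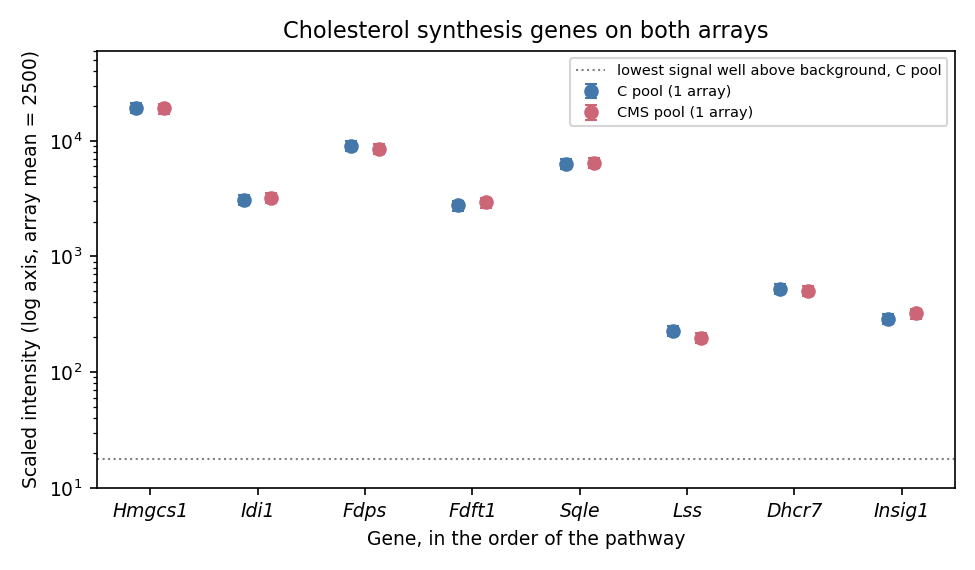
Scaled intensities of the 8 genes on a log axis in the C pool and the CMS pool, with 1 array each and bars for the scanner's error of each spot. The bars of both pools overlap for all 8 genes, Lss with its C value of 229 and CMS value of 197 included, and all lie above the dotted line at 17.8, the lowest signal that was well above background on the C array.

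The order of the ratios ran Lss, Fdps, Dhcr7, Hmgcs1, Sqle, Idi1, Fdft1 and Insig1, from lowest to highest. Neighbors in this order differed by 0.025 to 0.12 on the log2 scale, always less than their combined scanner errors of 0.29. The extremes, Lss and Insig1, differed by 0.37 against a combined error of 0.29. Genes in the signal range of the members had a 5th percentile of -0.24 and a 95th percentile of 0.19, so all 8 members lay between these values.

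**Figure D2:**
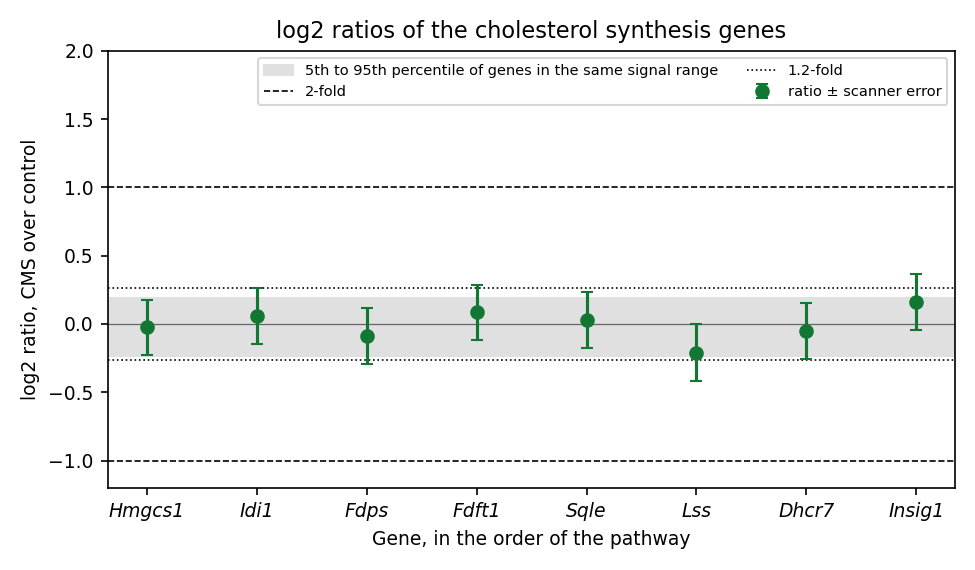
log2 ratios of CMS over control of the 8 genes in the order of the pathway, with bars for the combined scanner error. All points lie between the dotted lines at 1.2-fold and within the gray band, which runs from -0.24 to 0.19 and holds the 5th to 95th percentile of genes of similar signal.

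**Figure D3:**
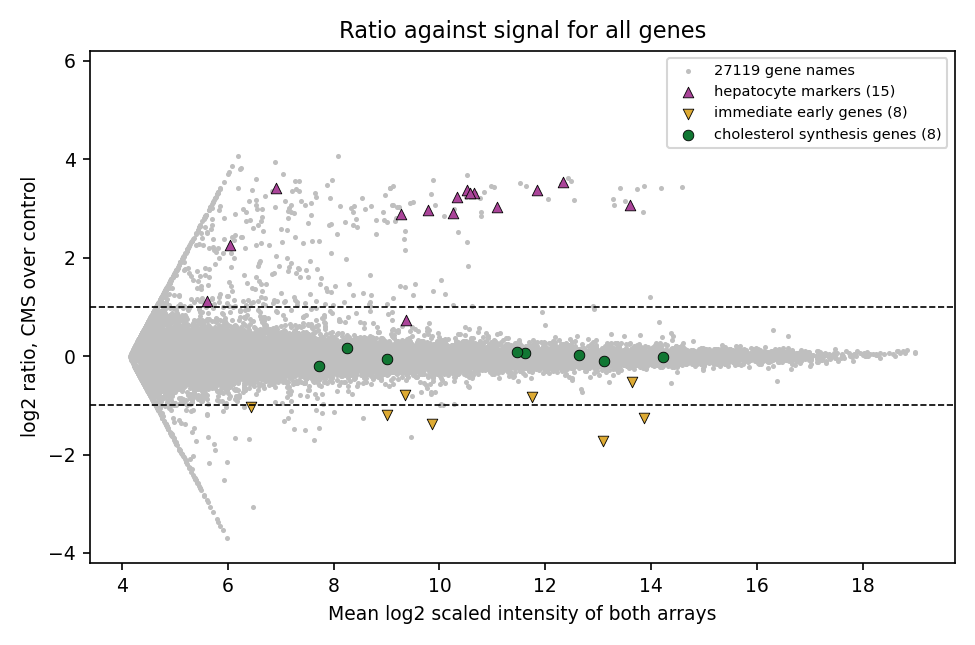
log2 ratio of CMS over control against the mean log2 scaled intensity for 27119 gene names, with dashed lines at 2-fold. The 8 cholesterol synthesis genes lie in the body of the cloud near 0, whereas hepatocyte markers run from 0.74 to 3.53 and immediate early genes from -1.72 to -0.53.

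The rest of the synthesis pathway was described on a list of 12 further enzymes, all well above background in both pools. None was past 1.5-fold, and 1 was past 1.2-fold, against 19.5% of all genes (2 with scaling to the median and 3 with no scaling). Their median log2 ratio was -0.029, close to that of all genes. The highest was Acat2, encoding a thiolase that joins acetyl-CoA units before HMG-CoA, with 571 (C) and 706 (CMS) and a log2 ratio of 0.31 ± 0.21. With no scaling Acat2 was at 0.13. The lowest was Cyp51, the lanosterol demethylase that follows Lss in the pathway, with 350 and 294 and a log2 ratio of -0.25 ± 0.21.

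The isoprenoid branch, which leads from Fdps to prenyl groups, dolichol and ubiquinone, gave a median of -0.048 over 7 genes. None was past 1.5-fold, and 2 were past 1.2-fold, against 19.5% of all genes. Under quantile normalization, with or without normexp, 0 of the 7 were past 1.2-fold. Pggt1b, a subunit of a prenyltransferase, was highest, with 53.5 (C) and 64.3 (CMS) and a log2 ratio of 0.27 ± 0.25. Pdss2, which takes part in making the ubiquinone tail, was lowest at -0.27 ± 0.21 with intensities of 377 and 312, and a second probe of it was at 0.0081.

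Genes that sense and regulate sterols were described on a list of 11, with a median log2 ratio of -0.054 and no member past 1.5-fold. By the brightest probe of each gene, 1 was past 1.2-fold, Nr1h3, against 19.5% of all genes. With no scaling 3 were, and Nr1h3 was not among them. Srebf2, which encodes SREBP2, was at 467 (C) and 451 (CMS), a log2 ratio of -0.051, and its dimmer probe was at 0.34 ± 0.22, so the probes of Srebf2 differed in sign. Srebf1, which encodes the related factor for fatty acid synthesis, was at 123 and 110, a log2 ratio of -0.17. Scap was at -0.082. Insig2, the paralog of Insig1, was at 3017 and 2810 by its brighter probe, a log2 ratio of -0.10. This was a difference of -0.26 from Insig1 against a combined error of 0.29. A second Insig2 probe, with 789 (C) and 692 (CMS), was at -0.19 ± 0.20 and so lay further from Insig1, by more than their combined error. The highest of the list was Nr1h3, encoding the oxysterol receptor LXR alpha, with 315 (C) and 411 (CMS) and a log2 ratio of 0.38 ± 0.21. A second Nr1h3 probe was at 0.26 ± 0.21, on the same side. Erlin2, which takes part in protein breakdown at the endoplasmic reticulum, was lowest, at -0.20.

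Uptake and intracellular transport genes had a median log2 ratio of -0.097 over the 11 genes described. By the brightest probe of each gene none was past 1.2-fold (7 were with no scaling), and 9 lay below the median of all genes, against 50% of all genes by definition. Vldlr, which encodes a lipoprotein receptor that also binds reelin, was at 5521 (C) and 5434 (CMS), a log2 ratio of -0.023 ± 0.20. A dimmer Vldlr probe, with 105 (C) and 110 (CMS), had the other sign, at 0.067 ± 0.22. Lipa, encoding the lysosomal lipase that frees cholesterol from its esters, was lowest of the list, with 388 and 339 and a log2 ratio of -0.20 ± 0.21. Npc1, a transporter of cholesterol out of lysosomes, was at 245 and 229, a log2 ratio of -0.097. Npc1l1, which takes up cholesterol in the intestine, was highest, with a dim probe at 41.5 (C) and 43.0 (CMS) and a log2 ratio of 0.054 ± 0.30. Ratios of the brightest probes were smaller than their scanner errors for all 11 genes. Mylip, which encodes a ubiquitin ligase for lipoprotein receptors and is named after its values were seen, was at -0.096 by its brighter probe. A dimmer Mylip probe was at 30.3 on the C array and not well above background on the CMS array, at least 1.72-fold lower there, and the mean of both was -0.44.

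Of 16 genes of efflux, esterification and turnover, 14 had a ratio, with a median of 0.029. Cyp46a1, the neuronal enzyme that turns cholesterol into 24-hydroxycholesterol, the main form in which it leaves the brain, was at 1041 (C) and 1097 (CMS), a log2 ratio of 0.076 ± 0.20. Abca1, an exporter of cholesterol, was at 520 and 544, with 0.065. Ch25h was lowest, at -0.15. Cyp27a1, which encodes a sterol hydroxylase of bile acid synthesis, was not well above background on the C array and at 36.4 on the CMS array, at least 2.05-fold higher there. Soat2, an enzyme of cholesterol esterification found mainly in liver and intestine, was at 36.9 and 56.8, with a log2 ratio of 0.62 ± 0.29. Cyp7a1, the rate-limiting enzyme of bile acid synthesis in liver, and Cyp8b1 were not well above background in either pool.

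Taking these lists and fatty acid synthesis, on which Fasn was at -0.10, as 1 set of 67 genes, 65 had a ratio and 1 of them, Cyp27a1, was past 2-fold. By the brightest probe of each gene, 2 were past 1.5-fold, Soat2 and Cyp27a1, both higher in the CMS group, against 3.71% of all genes higher past that fold. Both had dim probes, the brighter at 56.8. Under normexp background correction with quantile normalization their log2 ratios were 0.28 for Soat2 and 0.31 for Cyp27a1, and neither was past 1.5-fold. With the mean of all probes 3 genes were past 1.5-fold, the third being Acaca, which encodes acetyl-CoA carboxylase and is named after its values were seen. Acaca was at -0.15 by its brightest probe and at -0.81 by the mean of its probes. The other Acaca probes went opposite ways, one at 113 on the C array and not well above background on the CMS array, at least 5.62-fold lower there, and one at 0.21 ± 0.23.

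Idi2, the paralog of Idi1, was not well above background in either pool on any of its 3 probes.

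**Figure D4:**
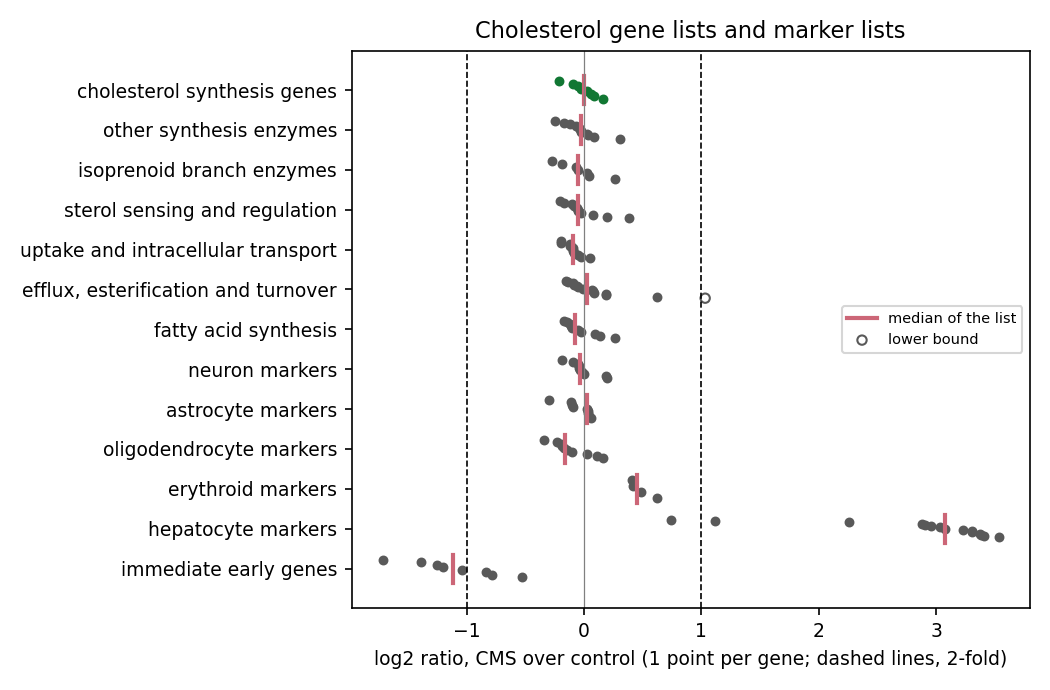
log2 ratios of CMS over control for each gene of the cholesterol lists and of marker lists, with a bar at each list's median, dashed lines at 2-fold and an open point for a lower bound. The cholesterol lists lie around 0 with Soat2 and Cyp27a1 to their right, the hepatocyte markers have a median of 3.07 and the immediate early genes one of -1.12.

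Markers of liver differed between these pools by far more than those of the cells of the cortex. Of 16 hepatocyte markers listed, 15 had a ratio. All 15 were well above background in both pools and past 1.5-fold higher in the CMS group, against 3.71% of all genes. Their summed intensity was 11152 (C) and 98942 (CMS), of which Serpina1a alone gave 4275 (C) and 35977 (CMS). Alb, encoding albumin, was highest at 3.53 and Tat, encoding a tyrosine-degrading enzyme, lowest at 0.74. Their part in the values of Cyp27a1, Soat2 and the 8 members was not tested.

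Neuron markers, which the label of prefrontal cortex calls for, were all well above background, with Snap25 at 48526 (C) and 47959 (CMS). The neuron list had a median log2 ratio of -0.036 over 10 genes, from Gad1 at -0.18 to Slc17a7 at 0.20. By the brightest probe of each gene, astrocyte markers had a median of 0.026 over 9 genes, with Gfap lowest at -0.30 and S100b highest at 0.058. The dimmer Gfap probes were at -0.015, with 585 (C) and 579 (CMS), and at -0.33 ± 0.25. Slc1a2, named after its values were seen, was at 0.038 by its brightest probe. Its dimmer probes were at 0.31 ± 0.20, with 801 (C) and 991 (CMS), and at 0.089. Oligodendrocyte markers had a median of -0.16 over 10 genes, 7 of them below the median of all genes. By the brightest probe of each gene, Mobp was lowest at -0.34, Mbp was at 0.11 and Sox10 was highest at 0.16. The dimmer Mobp probes were at -0.13 and -0.15. The summed intensity of the oligodendrocyte list was 28938 (C) and 26497 (CMS). Sums over the 8 cholesterol synthesis genes were 41683 (C) and 41180 (CMS), of which Hmgcs1 alone gave 19381 (C) and 19037 (CMS). Such sums follow the brightest probes and say little of dimmer genes. The part of oligodendrocyte content in the members' values was not tested.

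The scaling of the arrays sets where 0 lies for changes as small as these. The CMS array was dimmer as a whole, with a mean processed intensity of 2597 against 2929 for the C array, and scaling raised its log2 ratios by 0.17. Without scaling the members ran from -0.38 to -0.013, around a median of all genes of -0.20. Relative to the median of all genes, Lss stayed between -0.20 and -0.18 and Insig1 between 0.18 and 0.24 under the processing settings tried. Hmgcs1 stayed between -0.0080 and 0.015 on that scale.

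**Figure D5:**
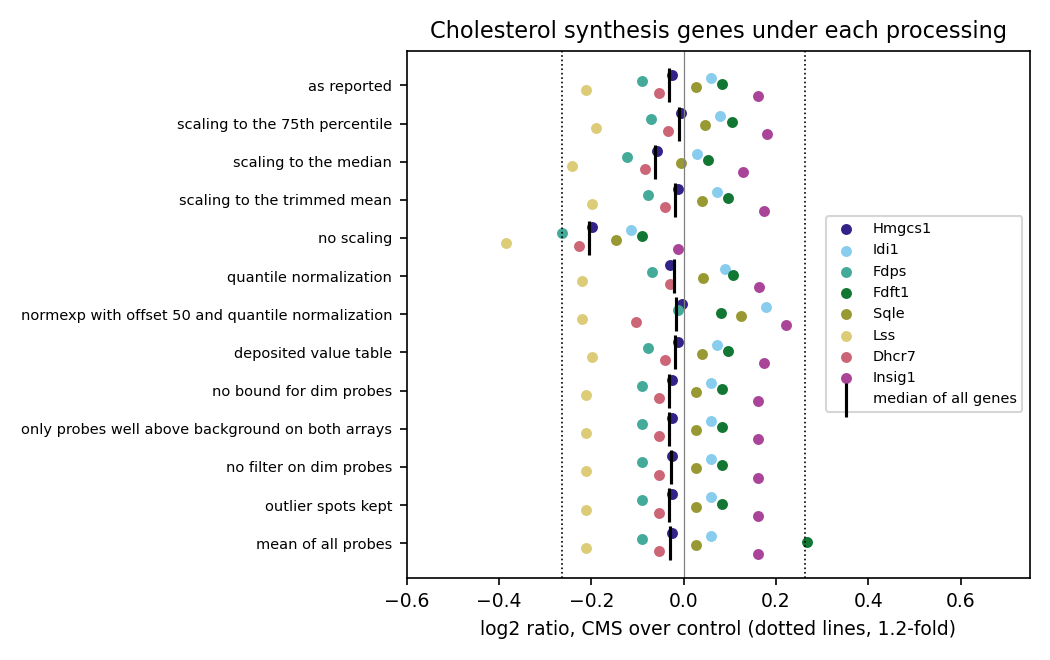
log2 ratios of the 8 genes under the processing as reported and 12 alternatives, with a black bar for the median of all genes and dotted lines at 1.2-fold. All points lie within 0.30 of the bar, with Lss to its left and Insig1 to its right in every setting. The single point past the right line is Fdft1 at 0.27 with both probes averaged, and those past the left line are Lss and Fdps with no scaling.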

How the data were processed

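RNA pools of the C group and the CMS group were each hybridized to 1 array of 1 slide. Per the file headers and the methods, the authors deposited spot intensities from Agilent Feature Extraction 10.10.1.1, background-subtracted and spatially detrended, and a table in which each array's intensities are multiplied by a constant. Array coordinates in the headers are of another build than the RefSeq tables and were not used.

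Control and outlier spots were left out, spots of 1 probe were averaged, and arrays were brought to a common mean of 2500. A probe with at least 0.5 of its spots well above background counted as well above background. A probe dim on 1 array took, on that array, whichever was higher, its own signal or the lowest signal well above background, and its ratio is a bound. Probes dim on both arrays received no ratio. A gene took its probe with the highest mean log2 signal. Accessions were named through the RefSeq table of GRCm38.p6, which named 30725 of 59305 spots, and transcripts without a RefSeq accession kept the identifier of the array. No spot was saturated, and 65.2% (C) and 65.9% (CMS) of spots were well above background. Signal over background and the number of arrays limit the precision.

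The members and the gene lists were chosen with earlier results of these data known. Some genes of the lists are not reported here and were left out of every list value. Genes named are the 8 members and, of the other lists, those past 1.5-fold (pathway lists), the highest and lowest, and a few fixed by role. Vldlr, Cyp8b1, Mylip, Acaca, Serpina1a and Slc1a2 were named outside these rules. Folds of 2, 1.5 and 1.2 are descriptions, not tests. The counting of genes was tested on simulated data for the fold of 2 only. The counts at lower folds and of probes dim on 1 array were not tested in this way. Alternatives were other scalings, normexp with an offset of 50 (on median intensities), the deposited table, other treatments of dim and outlier spots, and the mean of all probes. Python 3.11.15, numpy 2.4.6, pandas 2.3.3, R 4.3.3 and limma 3.58.1 were used.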

Additional observations from a re-analysis of the deposited data

How the results depend on the processing

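No analysis left out a replicate and no paired analysis was possible because each group has 1 array. Under the 12 alternatives, 219 of the compared list values and counts stayed within the spread between spots, 0.13, or within 1.5 times for counts, and 21 moved. The number of members past 1.2-fold was 2 with no scaling (Lss and Fdps) and 1 with the mean of all probes (Fdft1). None was past 1.5-fold under any of the alternatives. Of the other pathway genes, 2 were past 1.5-fold as reported, 1 with no scaling, 1 with dim probes left out, 0 under normexp with quantile normalization, and 3 with the mean of all probes (Acaca added) or with no filter on dim probes (Cyp7a1 added). By construction, having no scaling moved the median over genes by -0.17 and every list with it. The members' median was then -0.17, other synthesis enzymes -0.20, isoprenoid branch -0.22, sterol sensing -0.23, uptake -0.27, efflux -0.14, fatty acid synthesis -0.25, hepatocyte markers 2.90, neuron -0.21, astrocyte -0.15, oligodendrocyte -0.33, microglia -0.12, brain endothelium -0.15, erythroid 0.28 and immediate early genes -1.29. Under normexp with quantile normalization the immediate early genes were at -0.96. Of single genes, 508 values stayed within the spread and 55 moved, 47 of them with no scaling. Under normexp, which lowers ratios of dim probes, Soat2 was at 0.28 and Cyp27a1 at 0.31. Srebf2 was at 0.14 with the mean of both probes, against -0.051 with the brighter one.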

Other observations

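Fatty acid synthesis, which shares the SREBP family with the sterol pathway, gave a median log2 ratio of -0.077 over 10 genes, and by the brightest probe of each gene none was past 1.2-fold (5 were with no scaling). Acaca was at -0.81 with the mean of its probes, which differed in sign. Scd1, a desaturase, was highest, with 1420 (C) and 1702 (CMS) and a log2 ratio of 0.26, which 4 of the other scalings, the deposited table included, moved just past 1.2-fold (0.27 to 0.29) and the median scaling moved to 0.23. Fads2, a desaturase of polyunsaturated fatty acids, was lowest, at -0.17.

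By the brightest probe of each gene, microglia markers had a median of 0.054 over 7 genes, from Aif1 at -0.019 to Cx3cr1 at 0.16. A dimmer Cx3cr1 probe was at 0.26. Brain endothelium markers had a median of 0.019 over 7 genes, from Tie1 at -0.28 to Cldn5 at 0.19. Erythroid markers had a median of 0.45 over 4 genes, from Hba-a1 at 0.41 to Slc4a1 at 0.62. Immediate early genes, which neuronal activity induces, had a median of -1.12 over 8 genes, from Arc at -1.72 to Egr1 at -0.53. Of these 8 genes, 5 were lower past 2-fold, against 160 of all 27119 genes.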
